A study of Mus musculus with 39 samples.

Results

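The MHC class II antigen presentation genes examined here are 8 of the 50559 genes in the count tables. They were chosen by name for their place in the pathway, by a rule that uses no measured value, although earlier results of these data were known. Cd74 encodes the invariant chain, H2-Aa, H2-Ab1 and H2-Eb1 encode chains of the classical class II molecules, and H2-DMa and H2-DMb1 encode the peptide-exchange factor H2-DM. Ciita encodes the transcriptional coactivator of the class II genes, and Cd86 encodes a co-stimulatory ligand. All 8 passed the filter on low counts in both tissues.

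The libraries are bulk RNA-seq of tissue lysate from the basolateral amygdala (BLA), a nucleus needed for fear learning, and from the hippocampus of 9-month-old female mice. APP/Tau mice are double transgenics: line J9 supplies a human APP bearing the Swedish and Indiana changes, and line PS19 supplies P301S human tau. Controls lack both transgenes, and every mouse of either genotype carries CaMKIIα-Cre and RiboTag on a C57BL/6 background. Trained mice had been fear conditioned to a tone that was paired with foot shock, and naive mice had not. The BLA gave 4 trained and 5 naive APP/Tau libraries and 5 trained and 5 naive control libraries. The hippocampus gave 4 trained and 5 naive APP/Tau libraries and 6 trained and 5 naive control libraries. The RNA was taken from the lysate before any ribosome pull-down, so it comes from all cell types of the tissue. The BLA was taken as punches pooled within a mouse, and the hippocampi were dissected whole.

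Class II molecules carry peptides from endocytosed protein to the cell surface, where CD4 T cells read them. The invariant chain fills the peptide groove of a new class II molecule and takes it to the endosome, where cathepsins cut the chain down and H2-DM swaps its last fragment for an antigen peptide. In healthy brain the class II genes are low in parenchymal microglia and higher in macrophages and dendritic cells at the borders of the brain, and microglia around amyloid plaques can raise them. CIITA binds no DNA itself. It docks on factors that sit on the X box (the RFX complex) and on the Y box, an inverted CCAAT motif held by NF-Y, in class II promoters.

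The RefSeq promoter windows of the class II genes are shown because that shared layout can be read in the letters. A window runs from 250 bases before to 50 after a gene start on GRCm38.p6. The stretches below are printed 5′ to 3′ on the gene's strand, with capitals marking GNAAC, the core of the X box, and TGATTGG, the core of the Y box.
H2-Aa, chr17:34287857-34287914, minus strand: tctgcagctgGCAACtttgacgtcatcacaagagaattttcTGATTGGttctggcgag
H2-Eb1, chr17:34305766-34305822, plus strand: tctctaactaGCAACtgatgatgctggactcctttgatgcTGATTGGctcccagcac
H2-DMb1, chr17:34153087-34153144, plus strand: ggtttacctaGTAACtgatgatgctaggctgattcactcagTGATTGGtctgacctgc
H2-Oa, chr17:34092293-34092350, plus strand: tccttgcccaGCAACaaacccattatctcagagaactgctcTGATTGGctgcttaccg
H2-Ob, chr17:34238808-34238862, plus strand: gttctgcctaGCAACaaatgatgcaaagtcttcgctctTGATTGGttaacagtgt
In these 5 stretches 23 to 26 bases separate the motifs, and 38 to 56 bases separate the end of the module from the gene start. H2-Oa and H2-Ob encode H2-O, which restrains H2-DM, and are not among the 8 genes. The motifs were chosen after the sequences had been read, and both strands were searched. GNAAC followed after 10 to 40 bases by ATTGG stood in 4.87% of all 32851 windows, and 0.828% held it with TGATTGG. Alone, GNAAC stood in 84.8% of windows, ATTGG in 37.4% and TGATTGG in 7.82%, which holds ATTGG within it. The paired motif was not found in the windows of H2-DMa or of H2-DMb2, a near copy of H2-DMb1. No window was used for Cd74, H2-Ab1, Ciita or Cd86.

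Library depth was 50.3 to 74.3 M counts in the 19 BLA libraries and 92.1 to 128 M in the 20 hippocampal libraries (M, mega). The core class II genes were low: Cd74, H2-Aa, H2-Ab1 and H2-Eb1 had between 8 and 3699 counts in a BLA library and between 30 and 9482 in a hippocampal library. Levels below are in CPM, counts divided by the library's scaled total in M, which are not divided by gene length, so they are compared between samples and not between genes. The transgene loci followed the genotype labels in the hippocampus, where Prnp, whose promoter drives the tau transgene of PS19, rose by 1.11 (log2), App by 0.45 and Mapt by 0.22. In the BLA Prnp rose by 0.58, while App (-0.15) and Mapt (0.02) did not pass the test. As for tissue, 3 genes of BLA neurons summed to 280 to 1627 CPM in the BLA and 173 to 367 CPM in the hippocampus. Genes of striatal and central amygdala neurons, whose tissue adjoins the BLA, ranged from 327 to 3589 CPM across the BLA libraries. The 8 genes of hippocampal neurons did not separate the tissues, with 324 to 529 CPM in the BLA and 238 to 684 CPM in the hippocampus. In 2 hippocampal control libraries, trained sample 1 and naive sample 1, 1.99% and 5.18% of counts came from an 18S rRNA gene.

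Cd74, the invariant chain, showed the pattern of the class II genes in the hippocampus. The trained APP/Tau hippocampi had 72.1, 4.46, 74.7 and 10.95 CPM. The naive APP/Tau hippocampi had 8.55, 27.0, 8.57, 2.70 and 19.2 CPM. Trained controls had a lowest value of 1.33, a median of 1.92 and a highest value of 4.98 CPM, and naive controls had 2.51, 10.6, 2.46, 2.62 and 4.77 CPM. Trained APP/Tau samples 1 and 3 stood far above all other hippocampi, 5 of 9 APP/Tau hippocampi exceeded the highest control, and the genotypes overlapped. The highest control was naive control sample 2 at 10.6 CPM, and trained control sample 2 at 4.98 CPM and naive control sample 5 at 4.77 CPM also exceeded the lowest APP/Tau hippocampi.

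In the BLA, Cd74 had 61.9, 1.60, 19.2 and 3.29 CPM in the trained APP/Tau mice and 2.26, 18.5, 2.33, 1.12 and 6.31 CPM in the naive APP/Tau mice. Trained controls had 1.81, 3.50, 1.42, 1.66 and 0.656 CPM, and naive controls had 1.31, 2.15, 1.73, 1.40 and 3.36 CPM. Here 4 of 9 APP/Tau libraries exceeded the highest control, and the remaining 5 lay among the controls. The 4 highest libraries carried the same sample labels in each tissue: trained APP/Tau samples 1 and 3 and naive APP/Tau samples 2 and 5. The libraries of these labels also share the library numbers 1, 17, 13 and 18, but the labels do not state that the 2 tissues of a number came from the same mouse.

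**Figure D1:**
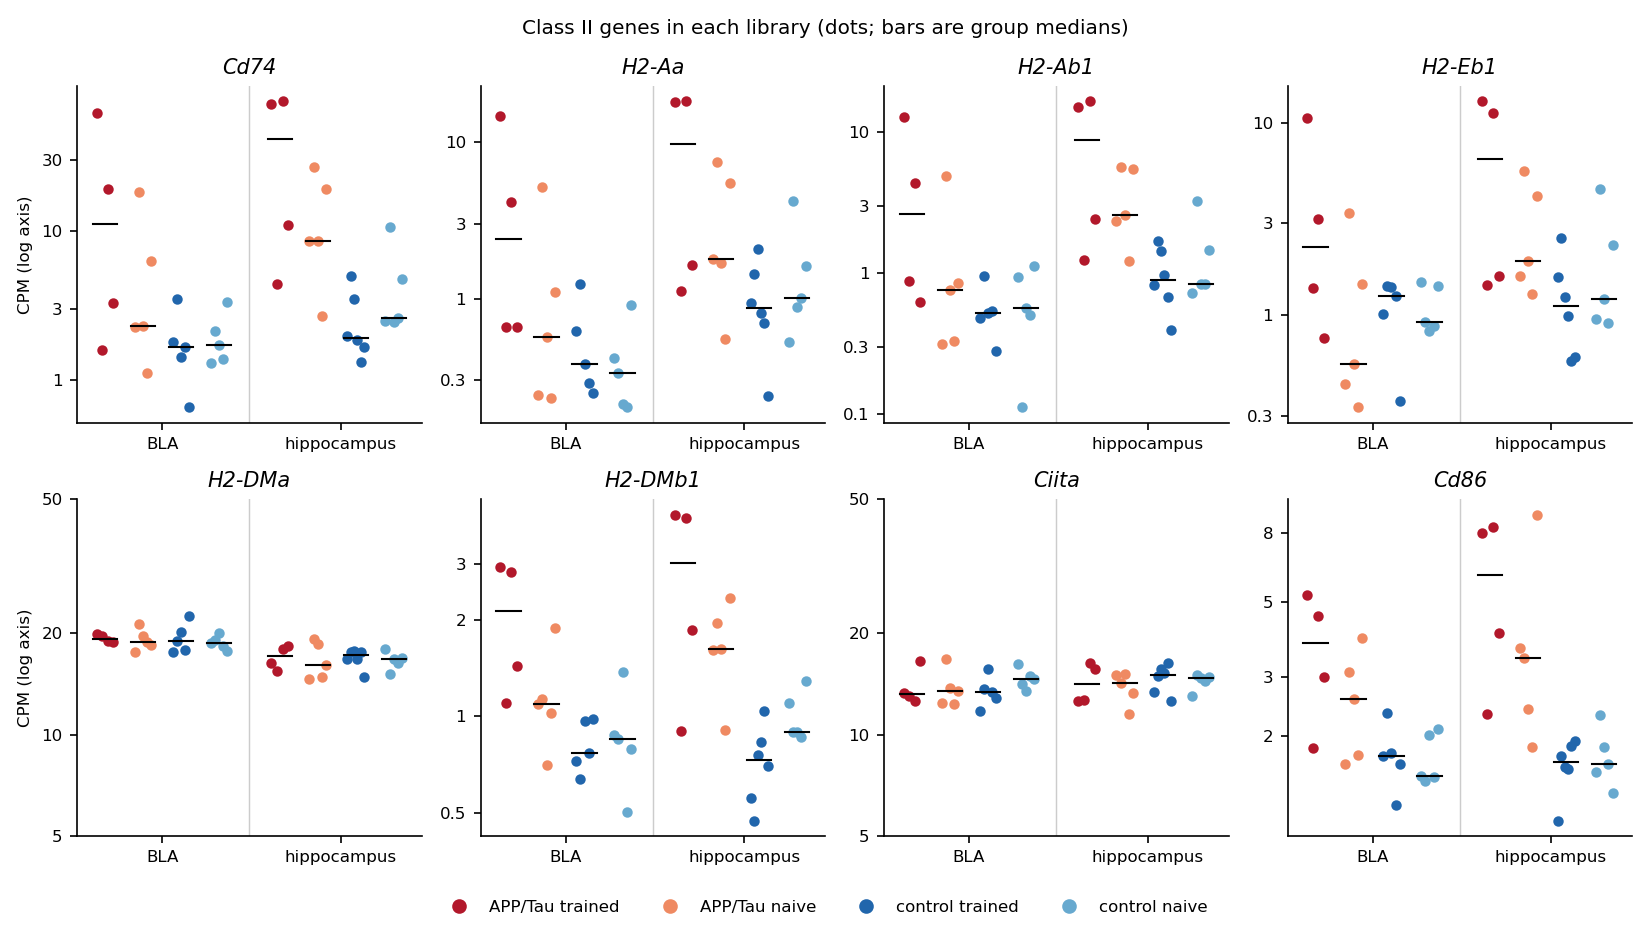
CPM (log axis) of the 8 genes in each of the 39 libraries, with the BLA on the left and the hippocampus on the right of each panel and a bar at each group median. For Cd74, H2-Aa, H2-Ab1 and H2-Eb1 a few APP/Tau libraries reach many times the control level while others lie among the controls, and H2-DMa and Ciita stay between 11.5 and 22.4 CPM in every library.

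The chains of the class II molecules themselves were highest in mostly the same libraries, with naive APP/Tau sample 5 as the exception. In the BLA that sample had 1.11 CPM of H2-Aa, 0.861 of H2-Ab1 and 1.46 of H2-Eb1, each below the highest BLA control. In the hippocampus its H2-Eb1 level of 4.15 CPM lay below the 4.53 CPM of naive control sample 2. H2-Aa, the alpha chain of the I-A molecule, had 17.98, 1.13, 18.3 and 1.64 CPM in trained APP/Tau hippocampi and 1.80, 7.43, 1.69, 0.549 and 5.51 CPM in naive ones. Its control hippocampi had 0.239, 0.872 and 2.08 CPM as lowest, median and highest trained value, and 0.529, 4.21, 0.885, 1.01 and 1.62 CPM when naive. Of 9 APP/Tau hippocampi, 4 exceeded the highest control, which again was naive control sample 2. In the BLA, H2-Aa had 14.8, 0.662, 4.14 and 0.661 CPM in trained APP/Tau mice and 0.244, 5.16, 0.572, 0.231 and 1.11 CPM in naive ones. The BLA controls had 0.621, 1.24, 0.381, 0.288 and 0.250 CPM when trained and 0.417, 0.335, 0.212, 0.202 and 0.906 CPM when naive. Only trained samples 1 and 3 and naive sample 2 exceeded every BLA control.

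H2-Ab1, the beta chain of I-A, had 15.2, 1.25, 16.7 and 2.44 CPM in trained APP/Tau hippocampi and 2.34, 5.67, 2.62, 1.23 and 5.49 CPM in naive ones. The control hippocampi had 0.398, 0.901 and 1.68 CPM as lowest, median and highest trained value, and 0.725, 3.28, 0.835, 0.838 and 1.46 CPM when naive. Here too 4 of 9 APP/Tau hippocampi lay above all controls. In the BLA its APP/Tau mean was 2.87 ± 4.11 CPM (SD, n = 9) and its control mean 0.606 ± 0.318 CPM (SD, n = 10), with 3 of 9 APP/Tau libraries above every control. H2-Eb1, the beta chain of the I-E molecule, had 12.9, 1.43, 11.3 and 1.59 CPM in trained APP/Tau hippocampi and 1.60, 5.63, 1.91, 1.28 and 4.15 CPM in naive ones. Its control hippocampi had 0.575, 1.12 and 2.51 CPM as lowest, median and highest trained value, and 0.955, 4.53, 1.21, 0.911 and 2.31 CPM when naive. The genotypes overlapped more for H2-Eb1, where 3 of 9 APP/Tau libraries lay above all controls in either tissue. In the BLA it averaged 2.44 ± 3.24 CPM in APP/Tau mice and 1.097 ± 0.361 CPM in controls (SD, n = 9 and 10). The partner of H2-Eb1, the I-E alpha chain gene H2-Ea, which C57BL/6 mice do not express, had 0 counts in all 39 libraries. A count of 0 allows up to 3 counts, or 0.0236 to 0.0580 CPM depending on the library.

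Cd86, the ligand through which antigen-presenting cells co-stimulate T cells, separated the genotypes more fully. Trained APP/Tau hippocampi had 8.01, 2.33, 8.34 and 4.04 CPM and naive ones 3.65, 3.41, 2.40, 1.85 and 9.08 CPM. The trained control hippocampi had 1.12, 1.68 and 1.94 CPM as lowest, median and highest value, and the naive control hippocampi had 1.56, 2.31, 1.85, 1.65 and 1.36 CPM. Of 9 APP/Tau hippocampi, 8 exceeded the highest control, and the remaining 1, naive sample 4, lay among them. In the BLA, trained APP/Tau mice had 5.24, 1.85, 4.54 and 2.99 CPM and naive APP/Tau mice 1.65, 3.09, 2.57, 1.75 and 3.91 CPM. Trained BLA controls had 1.74, 2.33, 1.79, 1.25 and 1.65 CPM and naive BLA controls 1.52, 1.47, 2.01, 1.51 and 2.10 CPM. There 6 of 9 APP/Tau libraries lay above all controls.

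H2-DM, the exchange factor, is a dimer whose chains behaved differently. H2-DMb1, its beta chain, averaged 2.18 ± 1.24 CPM in APP/Tau hippocampi (SD, n = 9) and 0.855 ± 0.237 CPM in control hippocampi (SD, n = 11), with 7 of 9 APP/Tau libraries above every control. Its trained APP/Tau hippocampi had 4.26, 0.902, 4.16 and 1.86 CPM, and its naive ones 1.61, 1.961, 1.62, 0.909 and 2.34 CPM. In the BLA it averaged 1.57 ± 0.807 CPM in APP/Tau mice and 0.848 ± 0.236 CPM in controls (SD, n = 9 and 10). H2-DMa, its alpha chain, did not follow: it had 16.8 ± 1.73 CPM in APP/Tau hippocampi and 16.8 ± 1.01 CPM in control hippocampi (SD, n = 9 and 11). In the BLA it had 19.2 ± 1.04 CPM in APP/Tau mice and 19.1 ± 1.48 CPM in controls (SD, n = 9 and 10). Ciita, the coactivator, was as flat, with 14.1 ± 1.61 CPM in APP/Tau hippocampi and 14.5 ± 1.13 CPM in control hippocampi, and with 13.8 ± 1.69 CPM in APP/Tau BLA and 14.1 ± 1.33 CPM in control BLA (SD, n = 9, 11, 9 and 10).

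The levels of these 2 flat genes need care. In the GENCODE annotation of GRCm38, H2-DMa shares 10.4% of its exonic bases with Brd2 and Ciita shares 3.45% with Dexi, each on the opposite strand. The strand setting of the counting is not given in the sources used here, so reads of the partners cannot be told apart. H2-DMa moved within 0.0917 to 0.112 of the Brd2 level in the BLA and 0.0749 to 0.0943 of it in the hippocampus. Ciita lay at 0.486 to 0.571 of the Dexi level in the BLA and 0.495 to 0.642 of it in the hippocampus. Brd2 and Dexi, both broadly expressed, were chosen for this after their values had been seen. H2-DMb1 and H2-DMb2 are near-identical, so the split of reads between them is uncertain, and Cd74 shares exonic bases with the microRNA gene Mir5107.

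The genotype effect in the hippocampus, averaged over trained and naive mice, was tested with edgeR's quasi-likelihood test with Benjamini-Hochberg adjustment over all 25791 genes tested. All log2 fold changes below are APP/Tau over control with standard errors, and called means an adjusted p under 0.05. Of the 8 class II genes 6 rose and none fell, while 11.1% of all genes were called and 7.27% rose. Cd74 rose by 2.75 ± 0.49 (adjusted p = 0.00171), H2-Ab1 by 2.20 ± 0.44 (adjusted p = 0.00414) and H2-Aa by 2.13 ± 0.55 (adjusted p = 0.0196). Cd86 rose by 1.499 ± 0.256 (adjusted p = 0.00129), H2-Eb1 by 1.49 ± 0.44 (adjusted p = 0.0353) and H2-DMb1 by 1.34 ± 0.23 (adjusted p = 0.00157). The remaining genes were H2-DMa at 0.01 ± 0.06 (adjusted p = 0.962) and Ciita at -0.05 ± 0.07 (adjusted p = 0.671). The median of the 8 genes was 1.497, beside -0.00 over all genes tested. Cd74, H2-Ab1, H2-DMb1 and Cd86 kept their calls in all 20 fits that left out 1 library. The calls of H2-Aa and H2-Eb1 were lost with limma-voom (adjusted p = 0.107 and 0.0932), and also without the 2 libraries rich in 18S rRNA. Without those libraries 4 of 8 genes and 1803 of all 25547 were called. H2-Aa lost its call without trained APP/Tau sample 1 (adjusted p = 0.0582) or sample 3 (adjusted p = 0.0603), and H2-Eb1 lost it in 9 of the 20 fits. Because these are bulk lysates, a change in the number of cells that carry a transcript and a change in RNA per cell cannot be told apart.

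**Figure D2:**
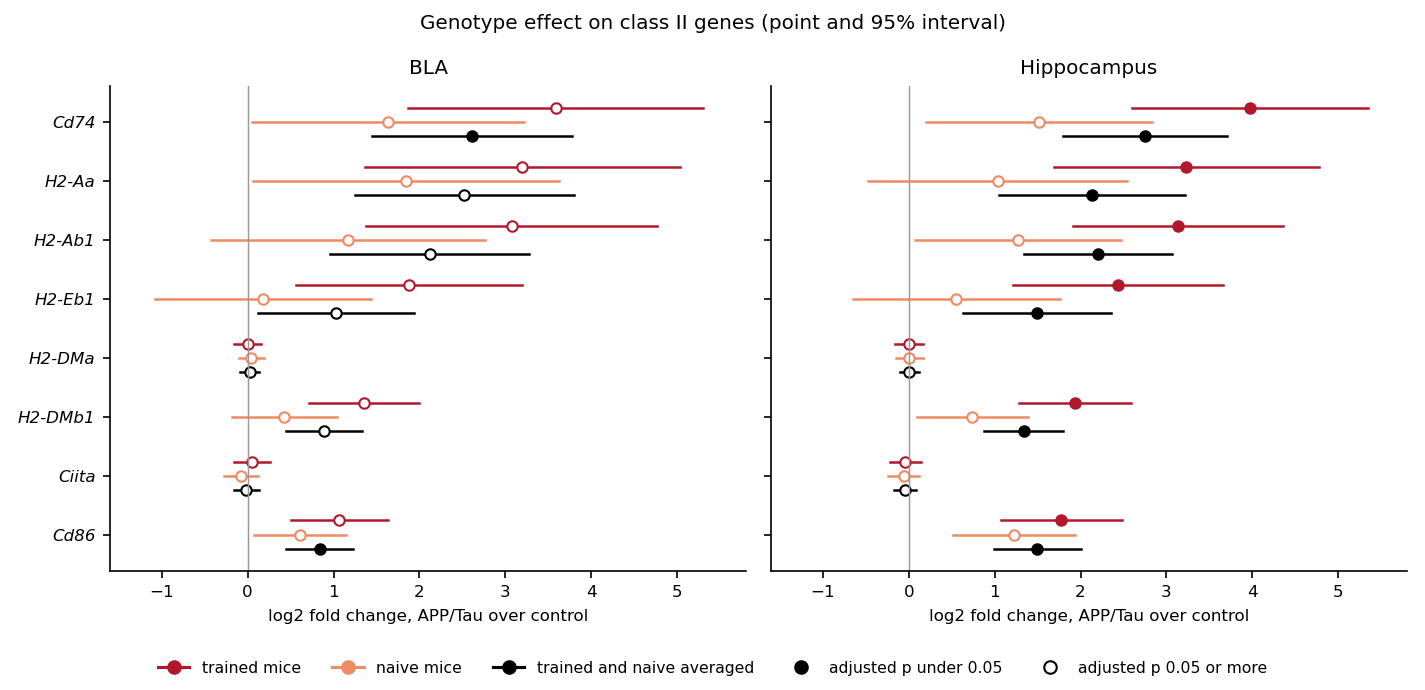
Log2 fold change of APP/Tau over control (horizontal axis) for the 8 genes in the BLA and in the hippocampus, in trained mice, in naive mice and averaged over them. Points are the estimates, lines are approximate 95% intervals and filled points mark an adjusted p under 0.05. The 6 filled hippocampal genes lie between 1.34 and 2.75 when averaged, and H2-DMa and Ciita lie at 0 with narrow intervals in both tissues.

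Within trained mice alone, APP/Tau hippocampi had the larger fold changes. The same 6 genes rose, while 2.80% of all genes were called and 2.65% rose. Cd74 rose by 3.97 ± 0.70 (adjusted p = 0.00635), H2-Aa by 3.23 ± 0.79 (adjusted p = 0.0311), H2-Ab1 by 3.13 ± 0.62 (adjusted p = 0.0118) and H2-Eb1 by 2.44 ± 0.62 (adjusted p = 0.0395). H2-DMb1 rose by 1.94 ± 0.33 (adjusted p = 0.00507) and Cd86 by 1.78 ± 0.36 (adjusted p = 0.0125). These values rest on 4 APP/Tau libraries, of which samples 1 and 3 carry the high levels. Without sample 1 or without sample 3, Cd74 (adjusted p = 0.0372 or 0.0362) and H2-DMb1 (adjusted p = 0.0448 or 0.0375) remained called and the other 4 genes did not. With limma-voom none of the 6 was called (adjusted p from 0.0528 for H2-DMb1 to 0.151 for H2-Aa). All 6 had unadjusted p under 0.05, as did 5542 of all genes. Over all genes limma-voom called 35 where edgeR called 721.

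In naive mice the hippocampal class II genes were 0 of 8 called by edgeR, beside 0.202% of all genes. Under an unadjusted p of 0.05 were 3 of 8, beside 3916 of all 25791 genes. DESeq2 called Cd86 alone of the 8, beside 744 of all 25773 genes, and limma-voom called none of the 8, beside 24 genes. Cd86 differed by 1.22 ± 0.36 (adjusted p = 0.127), Cd74 by 1.52 ± 0.67 (adjusted p = 0.286), H2-Ab1 by 1.27 ± 0.61 (adjusted p = 0.331) and H2-DMb1 by 0.74 ± 0.33 (adjusted p = 0.290). H2-Aa at 1.03 ± 0.77 and H2-Eb1 at 0.55 ± 0.61 were within their spread. The 95% interval of Cd74 in naive mice ran from 0.20 to 2.84, so a naive effect was left imprecise.

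In the BLA, averaged over trained and naive mice, Cd74 rose by 2.61 ± 0.59 (adjusted p = 0.0403) and Cd86 by 0.84 ± 0.20 (adjusted p = 0.0441), so 2 of the 8 genes were called. Of all 23168 genes tested 1.18% were called and 0.997% rose. H2-Aa at 2.52 ± 0.65 (adjusted p = 0.0581), H2-DMb1 at 0.89 ± 0.23 (adjusted p = 0.0549) and H2-Ab1 at 2.12 ± 0.59 (adjusted p = 0.0730) lay just beyond the threshold. H2-Eb1 was at 1.03 ± 0.46 (adjusted p = 0.237), H2-DMa at 0.02 ± 0.05 and Ciita at -0.02 ± 0.07. The median of the 8 genes was 0.96, beside 0.01 over all genes tested. Both calls were near the threshold: Cd74 lost its call in 13 and Cd86 in 14 of the 19 fits that left out 1 library, and limma-voom called neither (adjusted p = 0.217 and 0.0846). With the striatal marker level as a covariate, a choice made after the data had been seen, the adjusted p was 0.235 for Cd74 and 0.161 for Cd86. DESeq2 called 5 of the 8 genes, adding H2-Aa, H2-DMb1 and H2-Ab1, but it also called 1191 of all 23159 genes where edgeR called 273.

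When the BLA was split by training, edgeR called 0 of 8 genes in trained mice (0.0432% of all genes) and 0 of 8 in naive mice (0.0388% of all genes). At an unadjusted p under 0.05 there were 6 of 8 in trained and 1 of 8 in naive mice. Over all 23168 genes there were 2396 in trained and 3067 in naive mice. DESeq2 called Cd74, H2-DMb1 and Cd86 in trained mice, beside 204 of all 23159 genes, and none of the 8 in naive mice, beside 110. With limma-voom none of the class II genes was called in either, beside 8 genes in trained and 10 in naive mice. In trained BLA, Cd74 was at 3.58 ± 0.87 (adjusted p = 0.149) and H2-DMb1 at 1.35 ± 0.33 (adjusted p = 0.149). In naive BLA, Cd74 was at 1.63 ± 0.81 (adjusted p = 0.3902) and Cd86 at 0.61 ± 0.27 (adjusted p = 0.356).

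The genotype effect on these genes did not differ detectably between the tissues. A joint fit over both tissues tested the BLA effect minus the hippocampal effect. It called 0 of 8 genes and 0.0262% of all 26725. An unadjusted p under 0.05 was met by none of the 8 and by 2228 of all genes. DESeq2 and limma-voom also called none of the 8, beside 38 and 4 of all genes. With the library number as a block 30 of all genes and none of the 8 were called. Unadjusted p under 0.05 was then met by 2917 of all genes and 2 of the 8. Cd86 came nearest, at -0.68 ± 0.34 (unadjusted p = 0.0530, adjusted p = 0.604), and Cd74 was at -0.16 ± 0.78. For Cd74 the standard error leaves a wide interval, so equal effects were not shown.

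In the joint fit, which took the libraries of the 2 tissues as unpaired, levels were called different between tissues for few of the genes. In APP/Tau mice H2-DMa was higher in the BLA than in the hippocampus by 0.19 ± 0.06 (log2, adjusted p = 0.00472) and Cd86 was lower, at -0.64 ± 0.25 (adjusted p = 0.0280). Those 2 of 8 genes stand beside 51.0% of all genes called between the tissues in APP/Tau mice. In controls H2-DMa alone was called, at 0.19 ± 0.05 (adjusted p = 0.00259), beside 55.4% of all genes. The labels do not establish the library number as a mouse. In deviations from group means over all genes, though, 16 of 19 BLA libraries correlated best with the hippocampal library of their own number. With the library number as a block, 7 of 8 genes were called in APP/Tau mice and 4 of 8 in controls. Of all 26725 genes the blocked fit called 14083 in APP/Tau mice and 15213 in controls. The number of class II genes called therefore depends on whether libraries are paired. Tissue also differs in dissection and RNA input here.

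Training was followed by no called change in any of the 8 genes. In APP/Tau mice, trained over naive, edgeR called 0 of 8 class II genes and 0% of all genes in either tissue. Unadjusted p under 0.05 was met by 1356 of all genes in the BLA and 1184 in the hippocampus, and by 4 and 3 of the 8. Over all genes DESeq2 called 14 in the BLA and 2 in the hippocampus, none of them among the 8, and limma-voom called none. Cd74 differed by 1.82 ± 0.82 in the BLA (unadjusted p = 0.0376, adjusted p = 0.841) and by 1.61 ± 0.69 in the hippocampus (unadjusted p = 0.0300, adjusted p = 0.986). H2-Eb1 differed by 1.68 ± 0.67 in the BLA (adjusted p = 0.841) and by 1.21 ± 0.64 in the hippocampus (adjusted p = 0.986). In trained over naive controls, where 0% of all genes were called in either tissue, Cd74 was at -0.13 ± 0.82 in the BLA and -0.85 ± 0.65 in the hippocampus. There 484 genes in the BLA and 624 in the hippocampus had unadjusted p under 0.05, none of them among the 8, and DESeq2 called 2 and 0 genes while limma-voom called none.

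The difference between those training effects, the genotype by training interaction, was likewise called for 0 of 8 genes and 0% of all genes in both tissues by edgeR. In the hippocampus 4 of 8 genes had unadjusted p under 0.05, as did 1005 of all genes, and in the BLA none of the 8 and 894 of all genes. Cd74 had an interaction of 2.45 ± 0.94 in the hippocampus (unadjusted p = 0.0170, adjusted p = 0.984) and H2-DMb1 one of 1.19 ± 0.47 (unadjusted p = 0.0189, adjusted p = 0.984). In the BLA Cd74 was at 1.95 ± 1.15 (unadjusted p = 0.107). DESeq2 called 0 genes in the BLA and 3 in the hippocampus, none of them among the 8, and limma-voom called none. The calls in trained and not in naive hippocampi are therefore not shown to differ.

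Across the 8 tissue, genotype and training groups, Cd74 was highest in trained APP/Tau hippocampi at 40.6 ± 38.0 CPM (SD, n = 4), then in trained APP/Tau BLA at 21.5 ± 28.1 (n = 4) and naive APP/Tau hippocampi at 13.2 ± 9.73 (n = 5). Naive APP/Tau BLA followed at 6.11 ± 7.21 (n = 5), then naive control hippocampi at 4.59 ± 3.50 (n = 5) and trained control hippocampi at 2.56 ± 1.41 (n = 6). Naive control BLA at 1.99 ± 0.835 (n = 5) and trained control BLA at 1.81 ± 1.04 (n = 5) were lowest. The ranges of every pair of neighbours in that order overlapped, and so did those of the neighbours for each of the other 7 genes. For H2-DMa the order went by tissue: all BLA groups, with means of 18.8 to 19.4 CPM, lay above all hippocampal groups, with means of 16.6 to 17.002 CPM.

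Spread among libraries was wide for the chains, with larger values in APP/Tau mice than in controls, and narrow for H2-DMa and Ciita. From the lowest to the highest library Cd74 ranged 55.0-fold among APP/Tau BLA and 5.34-fold among control BLA. In the hippocampus it ranged 27.6-fold among APP/Tau libraries and 7.97-fold among controls, and H2-Aa ranged 33.3-fold among APP/Tau hippocampi and 17.6-fold among control hippocampi. The coefficient of variation of Cd74 was 152% in APP/Tau BLA and 47.2% in control BLA, and 111% in APP/Tau hippocampi and 76.0% in control hippocampi. Cd86, which is no chain, had 41.7% in APP/Tau BLA and 18.99% in control BLA, and 59.8% in APP/Tau hippocampi and 18.4% in control hippocampi. For H2-DMa and Ciita the coefficient lay between 5.39% and 12.3% in every genotype and tissue. Differences in spread were not tested.

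The genes whose libraries most resembled Cd74 were named by the root mean square difference of centred log2 CPM, a description with no test. Over the 20 hippocampal libraries the nearest of 25790 genes were H2-Ab1 (0.394), H2-Aa (0.550) and H2-Eb1 (0.670), followed by Lyz2 (0.688), Cybb (0.694), Siglecf (0.712), Serpinf2 (0.715) and Cd48 (0.757). Over the 19 BLA libraries the nearest of 23167 genes were H2-Aa (0.505), Lyz2 (0.727), H2-Ab1 (0.752), Cybb (0.776), Cd52 (0.806), Ccl6 (0.850), Capg (0.860) and H2-Eb1 (0.863). Lyz2 encodes a lysozyme and Cybb a subunit of the phagocyte NADPH oxidase, both of myeloid cells, and Cd48 and Cd52 encode surface proteins of leukocytes. Cd86 ranked 83 in the BLA and 88 in the hippocampus, and H2-DMb1 ranked 207 and 109. Ciita at 8152 and 9336 and H2-DMa at 8295 and 8354 were far from Cd74. The libraries share depth and tissue makeup, which enter this measure.

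Markers of some cell types also differed between the genotypes. Levels relative to the microglial genes are given further on, and the part of the other cell types in the result was not tested. The 8 microglial genes summed to 370 to 1109 CPM in APP/Tau hippocampi and 307 to 360 CPM in control hippocampi, and to 341 to 643 CPM in APP/Tau BLA and 290 to 374 CPM in control BLA. In the hippocampus, where 7.27% of all genes rose, 7 of 8 rose, among them Cx3cr1 by 0.89 ± 0.16 and Csf1r by 0.88 ± 0.15. In the BLA, where 0.997% of all genes rose, 3 of 8 rose, among them Csf1r by 0.51 ± 0.09 and Cx3cr1 by 0.46 ± 0.11. Of 10 genes of plaque-associated microglia, 9 rose in the hippocampus, led by Clec7a at 6.10 ± 0.67 and Itgax at 5.64 ± 0.62, with Tyrobp at 2.14 ± 0.26. In the BLA 7 of those 10 rose, among them Cst7 by 4.35 ± 0.80, Tyrobp by 1.45 ± 0.25 and Cd9 by 1.13 ± 0.19. The library with the highest microglial sum was not the one with the highest Cd74: naive APP/Tau hippocampus 5 had 1109 CPM of microglial genes and 19.2 CPM of Cd74. Trained APP/Tau hippocampi 1 and 3 had 843 and 828 CPM of microglial genes with 72.1 and 74.7 CPM of Cd74.

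Some genes of border macrophages, cells that carry class II at the meninges and along vessels, also rose in the hippocampus. The 8 border macrophage genes summed to 7.23 to 15.8 CPM in APP/Tau hippocampi and 4.27 to 11.4 CPM in control hippocampi. Of these 5 of 8 rose, beside 7.27% of all genes, F13a1 by 0.88 ± 0.22, Cd209f by 0.90 ± 0.23 and Mrc1 by 0.80 ± 0.20 among them. In the BLA, where 6 were tested, 0 were called by edgeR, and the sums were 2.09 to 6.19 CPM in APP/Tau BLA and 0.406 to 6.61 CPM in control BLA. Naive control hippocampus 2, the highest control for Cd74, had the highest control sum of these genes at 11.4 CPM, with 201 CPM of 5 meningeal genes. Without that library Cd74 rose by 3.05 (adjusted p = 0.00183) and all 6 hippocampal calls were kept. Meningeal and choroid plexus genes are not compared between the genotypes here.

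The lymphocyte genes Cd79a and Cd3e were low, and genes of other antigen-presenting cells did not rise together. Cd79a, a B cell receptor subunit, averaged 0.177 CPM in APP/Tau hippocampi and 0.086 CPM in control hippocampi, and Cd3e, which defines T cells, 0.119 and 0.058 CPM. None of the 5 B cell or 8 T cell genes tested in the hippocampus was called by edgeR, where 11.1% of all genes were called. The B cell sum, of which Cd79a was a small part, was 11.03 to 40.7 CPM in APP/Tau hippocampi and 9.09 to 52.0 CPM in control hippocampi. The T cell sum was 1.81 to 5.38 CPM in APP/Tau hippocampi and 1.35 to 3.63 CPM in control hippocampi. Of 7 dendritic cell genes tested in the hippocampus, Cd209a (1.30 ± 0.31) and Clec10a (1.01 ± 0.29) rose and Flt3, a growth factor receptor of dendritic cells, fell by 0.44 on the log2 scale (adjusted p = 0.0179). Zbtb46, the factor that marks classical dendritic cells, was at -0.17 ± 0.08 (adjusted p = 0.179), and the list summed to 12.4 to 19.1 CPM in APP/Tau hippocampi and 16.9 to 21.9 CPM in control hippocampi. No dendritic cell gene was called in the BLA. Of 5 monocyte and neutrophil genes tested in the hippocampus S100a9 rose, by 2.30 ± 0.71, and Ly6g was at 0 counts in all control hippocampi and all BLA libraries.

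Set against the microglial genes of the same library, some of the class II genes still differed. The log2 CPM of a gene minus the mean log2 CPM of the 8 microglial genes was compared by an exact permutation test, two-sided, with mice exchanged between genotypes within training groups and p adjusted over all genes. In the hippocampus Cd74 was higher by 1.61 (exact p = 0.00448, adjusted p = 0.00709), H2-Ab1 by 1.18 (exact p = 0.0116, adjusted p = 0.0168) and Cd86 by 0.58 (exact p = 0.00104, adjusted p = 0.00191). Those 3 of 8 stand beside 1.07% of all genes that were higher and 76.0% that were lower on this scale. H2-Aa at 0.96 (exact p = 0.111), H2-Eb1 at 0.54 (exact p = 0.231) and H2-DMb1 at 0.46 (exact p = 0.0451, adjusted p = 0.0578) did not pass. The microglial mean was itself higher in APP/Tau mice, which sets any flat gene below 0 on this scale, as for H2-DMa (-0.73) and Ciita (-0.78), and with so many genes called lower the adjusted p lies close to the exact p. In the BLA Cd86 was higher by 0.39 (exact p = 0.00923, adjusted p = 0.0306), beside 0.686% of all genes higher and 41.8% lower, and Cd74 at 1.37 did not pass (exact p = 0.0344, adjusted p = 0.0706). With Csf1r alone as the microglial level no BLA gene of the 8 was higher. A ratio to microglial genes does not tell which cells hold the transcript.

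Other genes of the pathway are given by list, to be read beside the 7.27% of all genes that rose in the hippocampus and 0.997% in the BLA. The 3 further class II genes tested all rose in the hippocampus, H2-Ob by 1.34 ± 0.25, H2-Oa by 1.15 ± 0.29 and H2-DMb2 by 1.56 ± 0.42, and in the BLA H2-Oa rose by 1.22 ± 0.27. H2-DMb2 was low, at 0.0211 to 0.728 CPM over the libraries of both tissues, and the split of its reads from H2-DMb1 is uncertain. Of 10 antigen processing genes 9 rose in the hippocampus, among them the cathepsin genes Ctss (1.71 ± 0.25), whose enzyme degrades the invariant chain, Ctsz (1.36 ± 0.23) and Ctsd (1.35 ± 0.23). In the BLA 4 of 10 rose, including Ctsz by 1.13 ± 0.22, Ctss by 0.94 ± 0.20 and Ctsh by 0.92 ± 0.20. Sppl2a, the protease that clears the last membrane stub of the invariant chain, was at 0.05 ± 0.07 in the BLA and 0.03 ± 0.03 in the hippocampus. Median changes of the processing genes were 0.48 in the BLA and 1.01 in the hippocampus.

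**Figure D3:**
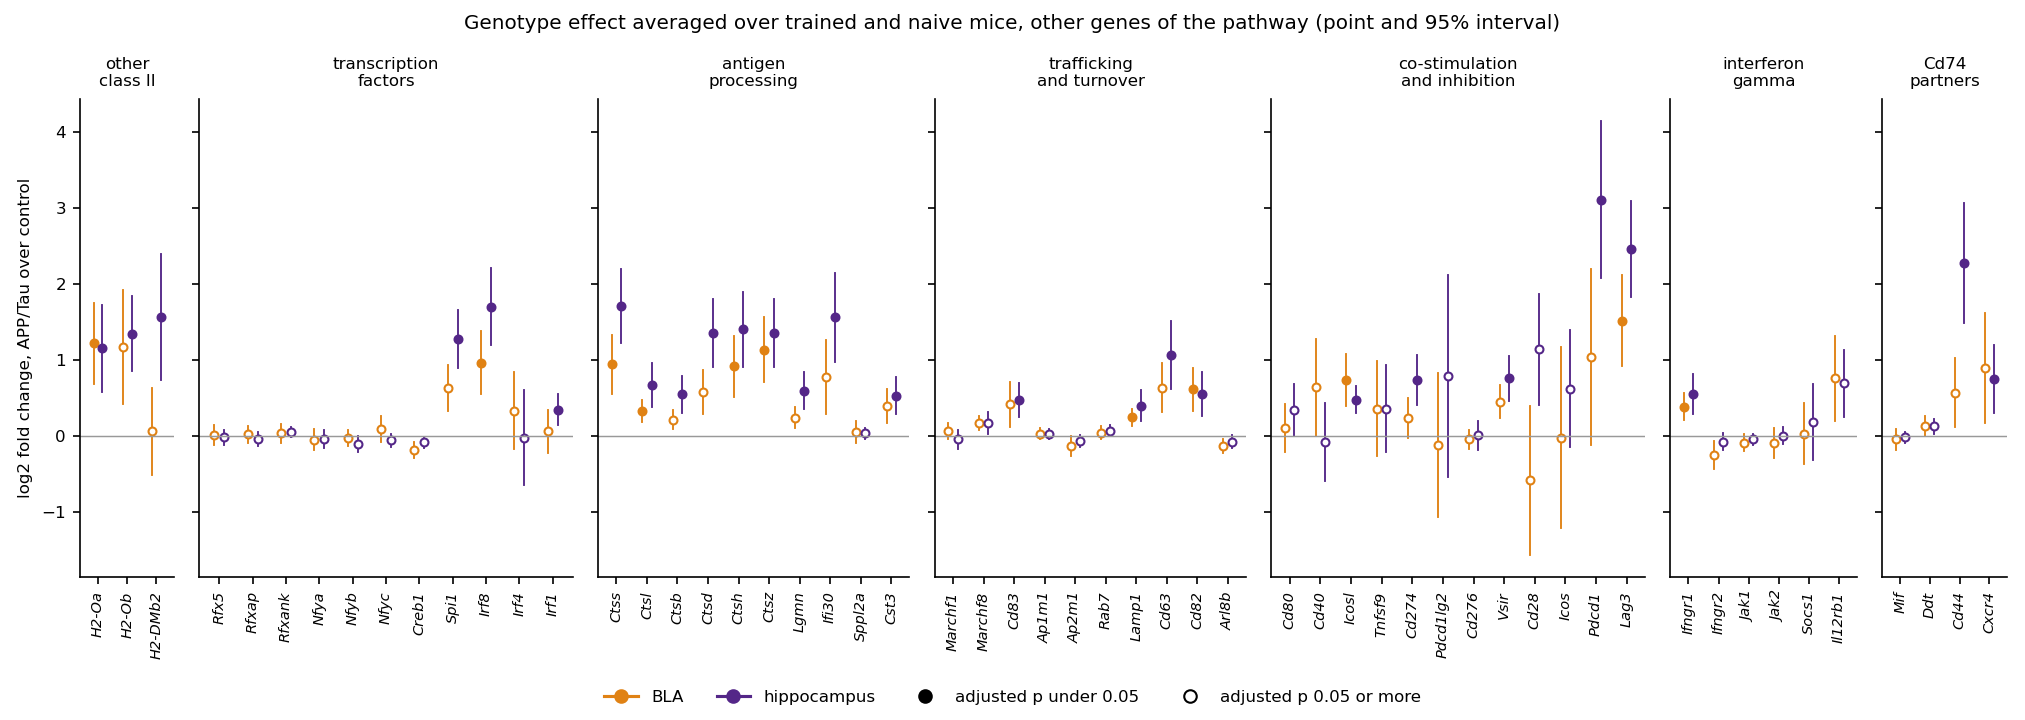
Log2 fold change of APP/Tau over control, averaged over trained and naive mice, for genes of 7 other lists of the pathway in the BLA and in the hippocampus. Lines are approximate 95% intervals and filled points mark an adjusted p under 0.05. Antigen processing genes lie mostly above 0, 9 of 10 filled in the hippocampus and 4 of 10 in the BLA, while the RFX and NF-Y genes lie close to 0.

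Among the 12 transcription factor genes, Irf8 and Spi1, which encode myeloid lineage factors, rose in the hippocampus by 1.70 ± 0.26 and 1.27 ± 0.20, with Irf1, an interferon response factor, at 0.34 ± 0.10, and the median of the list was -0.02. In the BLA Irf8 alone of the 12 was called, at 0.96 ± 0.21. The RFX genes Rfx5, Rfxap and Rfxank and the NF-Y genes Nfya, Nfyb and Nfyc, whose products hold the X and Y boxes shown above, lay between -0.05 and 0.09 in the BLA and between -0.11 and 0.05 in the hippocampus, with none called. Interferon gamma is the classical inducer of Ciita. Its gene Ifng was too low to test in either tissue, and its receptor gene Ifngr1 rose by 0.38 ± 0.09 in the BLA and 0.55 ± 0.13 in the hippocampus, the 1 called of 6 tested in each.

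Of 10 trafficking and turnover genes 4 rose in the hippocampus, including Cd63 by 1.06 ± 0.23, Cd82 by 0.55 ± 0.15 and Cd83, which stabilises surface class II, by 0.46 ± 0.11. In the BLA Cd82 rose by 0.61 ± 0.14 and Lamp1 by 0.24 ± 0.06. Marchf1, whose ubiquitin ligase removes class II and CD86 from the surface, was at 0.06 ± 0.05 in the BLA and -0.05 ± 0.06 in the hippocampus. Of 12 co-stimulatory and inhibitory genes tested, 5 rose in the hippocampus. They included Pdcd1 at 3.11 ± 0.53, Lag3, an inhibitory receptor that binds class II, at 2.46 ± 0.32, and Icosl at 0.47 ± 0.09. In the BLA Lag3 at 1.51 ± 0.30 and Icosl at 0.73 ± 0.18 rose. Cd80, the sister ligand of Cd86, was at 0.10 ± 0.16 in the BLA and 0.34 ± 0.18 in the hippocampus and was not called. Of the partners of CD74 as a receptor for the cytokine MIF, Cd44 rose by 2.28 ± 0.40 and Cxcr4 by 0.74 ± 0.23 in the hippocampus, the ligand gene Mif was at -0.02 ± 0.04, and none was called by edgeR in the BLA.

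Some astrocyte and neuronal genes also differed between the genotypes. Whether they followed the class II genes from library to library was not tested. Gfap, an astrocyte filament gene, rose by 3.12 ± 0.54 in the BLA and 2.48 ± 0.31 in the hippocampus, where Aqp4 (0.81 ± 0.18) and Aldh1l1 (0.34 ± 0.11) rose too. In the hippocampus the neuronal genes Prox1 (-0.48 ± 0.12), Wfs1 (-0.38 ± 0.12), Etv1 (-0.37 ± 0.08) and Lypd1 (-0.48 ± 0.12) fell and Ppp1r1b (0.27 ± 0.09) rose. They are called genes picked from the lists of hippocampal, BLA and striatal neurons, in a comparison that called 11.1% of all genes. The astrocyte genes were likewise picked from their list as called. How the other genes of these lists moved is not described here, so no direction is given for a cell type. Without the 2 libraries rich in 18S rRNA the hippocampal counts were 9 of 10 for antigen processing, 7 of 8 for microglia and 9 of 10 for plaque-associated microglia, as before, and 2 in place of 4 of 12 for transcription factors. With the striatal covariate no antigen processing or microglial gene was called in the BLA and 1 of 10 plaque-associated genes was.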

How the data were processed

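Per the labels' protocols, polyadenylated RNA of tissue lysate was sequenced as paired reads. The authors deposited whole-number counts per gene, 1 table per tissue. Trimmomatic 0.39 and genome build mm39 are named in the submitters' processing notes, and no aligner, counter, annotation or strand use is given in those sources. Even numbers made up 68.4% of the core class II counts in the BLA and 55.0% in the hippocampus, and whether mates were counted separately was not tested. The labels number samples within groups but do not tie libraries to named mice, so p-values measure the spread between these libraries. Total counts ranged from 50.3 to 128 M per library, and the floor given for a count of 0 covers counting error only.

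Genes were filtered with filterByExpr (minimum count 10, minimum total 15) and tested with edgeR 4.0.16 in R 4.3.3, with TMM scaling, quasi-likelihood F tests and Benjamini-Hochberg adjustment over all genes tested, threshold 0.05. Each tissue was fitted on its 4 groups, and both tissues jointly for tissue contrasts, 15 comparisons in all. Standard errors were taken as log2 fold change over the root of F, and 95% intervals span 1.96 of them on either side. These intervals are approximate and narrower than the F test allows. Cd74 in naive BLA had an interval of 0.048 to 3.22 with an unadjusted p of 0.0574 in the quasi-likelihood test. The edgeR test was checked on counts simulated with a spread set by the trend over all genes, not by each gene's own spread. The permutation test was checked on random normal values. Neither check used the spread of the class II genes, so neither bears on how firm their calls are. Alternatives used DESeq2 1.42.0, limma-voom 3.58.1, other scaling, no filter, blocks, 2-group fits and each library left out. The permutation test used log2 CPM with a prior count of 2. Its p-values were adjusted over all genes, in place of the planned adjustment over the 8 genes.

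Members and lists were chosen with earlier results of these data known. Named beside the 8 genes are up to 3 called genes with the smallest p of each list in each tissue, defining genes of other cell types, and the 5 genes nearest to Cd74. A few further list genes were named after their values were seen: Sppl2a, Marchf1, Cd80, Mif, the RFX and NF-Y genes, and App and Mapt in the BLA. A few list genes count in their lists but are not reported by name here. Gene overlaps were read from GENCODE on GRCm38, and no mm39 coordinates are given. Same-numbered samples within a tissue did not deviate together, with a mean correlation of -0.02 over 27 pairs in the BLA and 0.03 over 27 pairs in the hippocampus. The library number shared by the tissues gave a mean of 0.13 over 19 pairs, 11 of them over 0.1.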

Additional observations from a re-analysis of the deposited data

Results flagged for a closer look

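Among 64 groups (8 genes in 8 groups of 4 to 6 libraries), 7 had a highest or lowest library that stood apart from the rest by Dixon's criterion, where chance gives about 3.2. That figure holds for normally distributed values. The criterion was applied to CPM without a log, and the 8 genes share libraries, so an excess over chance was not shown. Naive control hippocampus 2 stood highest in its group for Cd74 at 10.6 CPM, the next library being 4.77, and for H2-Ab1 at 3.28 CPM, the next being 1.46. The same library had the highest control sums of border macrophage genes (11.4 CPM), and its Ighm level and B cell sum were high as well (52.0 CPM for the sum), while its microglial sum (335 CPM) lay within the control range. Naive APP/Tau BLA 2 stood highest in its group for H2-Aa at 5.16 CPM, the next being 1.11, and for H2-Ab1 at 4.89 CPM, the next being 0.861. Its microglial sum of 517 CPM was close to that of naive APP/Tau BLA 5 (531 CPM), where H2-Aa was at 1.11 CPM. Naive APP/Tau hippocampus 5 stood highest for Cd86 at 9.08 CPM, the next being 3.65, and had the highest microglial sum of all hippocampi, 1109 CPM. At the low end, trained control hippocampus 6 had 14.9 CPM of H2-DMa, the next being 16.7, and naive control hippocampus 1, rich in 18S rRNA, had 13.05 CPM of Ciita, the next being 14.5. The part of these markers in the high libraries was not tested.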

How the results depend on the processing

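No log2 fold change of the 8 genes that was called changed sign under any alternative run. Counts of class II genes here are of the 8 genes, with Cd86 and Ciita among them. For the averaged BLA effect, 273 genes and 2 class II genes (Cd74 and Cd86, neither of them an H2 chain) were called by edgeR. There DESeq2 gave 1191 and 5, limma-voom 64 and 0, the replicate block 44 and 0, and the striatal covariate 33 and 0. Leaving out 1 library gave 45 to 2176 genes and 0 to 5 class II genes, with 45 and 0 without trained APP/Tau sample 1. In naive BLA (9 genes) DESeq2 gave 110, the 2-group fit 27 and leaving out 1 library 8 to 16. In trained BLA (10 genes, 0 class II) DESeq2 gave 204 and 3, the 2-group fit 6 genes, and leaving out 1 library 8 to 677 genes and 0 to 5 class II genes. For the averaged hippocampal effect (2854 genes, 6 class II), leaving out the 18S-rich libraries gave 1803 genes and leaving out 1 library 1171 to 4465 genes and 4 to 6 class II genes. In naive hippocampi (52 genes, 0 class II) DESeq2 gave 744 and 1 (Cd86), and limma-voom 24 genes. There the 2-group fit gave 21, leaving out the 18S-rich libraries 21, and leaving out 1 library 18 to 260. In trained hippocampi (721 genes, 6 class II) DESeq2 gave 1584 genes, limma-voom 35 and 0 class II, the replicate block 1456 genes, leaving out the 18S-rich libraries 227, and leaving out 1 library 62 to 2234 genes and 2 to 6 class II genes. For training, DESeq2 gave 14 genes in APP/Tau BLA, 2 in control BLA and 2 in APP/Tau hippocampi, and 3 for the hippocampal interaction, where edgeR gave 0. For BLA minus hippocampus levels, the library-number block gave 7 class II genes in APP/Tau mice (2 without it) and 4 in controls (1 without it). Over all genes that block gave 14083 (13634 without it) and 15213 (14798 without it). For class II genes DESeq2 gave 2 in controls, and leaving out 1 library gave 1 to 6 and 1 to 2. For the tissue difference of the genotype effect (7 genes), DESeq2 gave 38, limma-voom 4, the library-number block 30, and leaving out 1 library 2 to 25. Relative to microglial genes, 3 class II genes were higher in the hippocampus (3 to 4 with 1 library left out). In the BLA 1 was, Cd86 (0 to 2 with 1 library left out, and 0 with Csf1r alone). The cause of these shifts was not tested. The sample numbers share only a name across groups: 3 of 19 BLA and 4 of 20 hippocampal libraries correlated best with their own number, and 16 of 19 libraries did so for the library number shared between tissues. The core genes had few counts in some libraries, with 8 counts as the lowest in the BLA and 30 in the hippocampus.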
